A study of Homo sapiens with 9 samples.

Results

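The genes described here carry the main steps of antigen presentation by MHC class I molecules. They were taken by symbol from the mRNA table as HLA-B, HLA-C, HLA-E, B2M, TAP1, TAP2, TAPBP, PSMB8 and PSMB9 because of their known roles, which makes 9 of its 19976 genes. The rule uses no measured value, although it was written with earlier results of these data known. The cells were HCT8/5-Fu, a derivative of HCT8 resistant to 5-fluorouracil (5-Fu), HCT8/DDP, a derivative resistant to cisplatin (DDP), and the chemosensitive parental line HCT8, an established human line of colorectal adenocarcinoma. All lines were grown in the same medium with serum, but each resistant line was also kept in its own drug to hold its resistance, and whether drug was present when RNA was taken is not given in the sources used here. RNA was sequenced in 3 libraries per line, 9 in all. Each resistant line is a single derivative obtained by long exposure to its drug, so a difference from HCT8 belongs to that line, in which the selection and the drug in the medium cannot be told apart. The labels do not say that the 3 libraries of a line came from separate cultures, so p-values cover only the variation among these libraries, and that may be technical.

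Class I molecules show short peptides from the cell's own proteins to cytotoxic T cells. The proteasome cuts the proteins, and under interferon its catalytic subunits are replaced by those of the immunoproteasome, among them PSMB8 and PSMB9. The transporter made of TAP1 and TAP2 carries the peptides into the endoplasmic reticulum, where tapasin, the product of TAPBP, holds an empty heavy chain at the transporter until a peptide fits. The heavy chain, encoded by HLA genes, reaches the cell surface only with beta-2-microglobulin, the product of B2M. Loss of this pathway is a known way by which colorectal tumors escape T cells.

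Levels are given in CPM, the reads of a gene scaled to 1000000 counted reads in its library, and the libraries held 19753035 to 28535882 reads. The replicates of a line differed by more than sampling noise in every pair, so none was counted as a duplicate. Replicate 1 of HCT8/5-Fu stood apart from the other libraries of its line: over 12409 genes its Pearson r of log2(CPM + 1) with them was 0.971 and 0.973, against 0.997 between the other 2, which had an r of 0.981 to 0.989 with the HCT8/DDP libraries. Replicate 1 of HCT8 had an r of 0.985 and 0.987 with its own replicates, against 0.996 between those. Both are the shallowest libraries of the series, and calls of the members and of the other named genes that change without them are given with that value. Summed over 11 markers of colorectal epithelium, the level was 13426 to 15980 CPM in HCT8/5-Fu, 9580 to 10937 CPM in HCT8/DDP and 5607 to 6753 CPM in HCT8. Most of this sum came from the keratins KRT8 and KRT18, and the other 9 markers summed to 2607 to 3000.0 CPM in HCT8/5-Fu, 2636 to 2913 CPM in HCT8/DDP and 1924 to 2111 CPM in HCT8. In each resistant line 7 of the markers were called higher and none lower, while CDH1, CDX2 and VIL1 were not called in either. The 10 leukocyte markers summed to 21.2 to 35.8 CPM in HCT8/5-Fu, 25.7 to 44.2 CPM in HCT8/DDP and 24.1 to 27.8 CPM in HCT8, a sum that hides changes in both directions. LAPTM5, a lysosomal protein of blood cells, had 17.4, 8.10 and 7.20 CPM in HCT8/5-Fu, 6.85, 21.9 and 20.4 CPM in HCT8/DDP, and 0.20, 0.39 and 0.17 CPM in HCT8. LAPTM5 and ITGB2 were called higher and CD14 and CORO1A lower in each resistant line, and PTPRC, CD3E and MS4A1 were at 0 counts in all 9 libraries. Part of the epithelial and leukocyte markers thus moved with the lines, and their part in the results below was not tested. In bulk RNA a change in the share of cells of one state and a change in RNA per cell cannot be told apart.

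Apart from B2M on chromosome 15 (44711487 to 44718877), all members lie on chromosome 6, in the major histocompatibility complex. In the coordinates of the table, which fit GRCh38 as 99.98% of 18764 matched genes overlap their RefSeq position there, HLA-E spans 30489509 to 30494194, HLA-C 31268749 to 31272130, HLA-B 31269491 to 31357188 and TAPBP 33299694 to 33314387. Between them, TAP2 (32821833 to 32838770), PSMB8 (32840717 to 32844679), TAP1 (32845209 to 32853978) and PSMB9 (32844136 to 32859851) form a tight cluster in which PSMB9 is read from the plus strand and the other 3 from the minus strand. The span of PSMB9 covers all 8770 bases of TAP1 and 544 bases of PSMB8, and the span of HLA-B shares 2640 bases with HLA-C. The sources used here do not state that counting used strand, so reads of PSMB9 and of its antisense partners cannot be told apart where they overlap. HLA heavy chain genes are near-identical over long stretches, so the split of reads among them is uncertain.

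In RefSeq, PSMB9 and TAP1 start 488 bases apart and point away from each other. The deposited span of PSMB9 instead begins at 32844136 and runs through TAP1, so the RefSeq start differs from that of the counted gene. Their promoters are shown because these neighbours moved in opposite directions, with that of TAPBP, the member with the largest rise, and that of B2M, the shared light chain. Each sequence is from RefSeq on GRCh38.p14, runs from 250 bases before to 50 bases after the start site, 5′ to 3′ on the gene's strand, and has in capitals the matches, on either strand, to an interferon response element (GAAA, 2 bases of any kind, GAAA), to a GAS element (TTCNNNGAA) or to the NF-kappaB consensus.
PSMB9 (chr6:32853942-32854241, plus strand): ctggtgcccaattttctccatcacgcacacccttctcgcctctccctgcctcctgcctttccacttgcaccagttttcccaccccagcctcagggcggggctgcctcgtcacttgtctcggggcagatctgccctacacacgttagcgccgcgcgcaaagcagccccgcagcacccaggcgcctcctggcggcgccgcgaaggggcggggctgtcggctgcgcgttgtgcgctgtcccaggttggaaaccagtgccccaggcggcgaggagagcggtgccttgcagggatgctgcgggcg
TAP1 (chr6:32853655-32853954, minus strand): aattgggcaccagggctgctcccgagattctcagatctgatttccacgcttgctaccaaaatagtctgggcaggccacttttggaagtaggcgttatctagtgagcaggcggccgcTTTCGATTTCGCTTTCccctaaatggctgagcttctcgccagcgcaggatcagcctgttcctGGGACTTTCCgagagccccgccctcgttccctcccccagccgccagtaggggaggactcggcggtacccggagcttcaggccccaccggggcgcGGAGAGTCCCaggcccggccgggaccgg
TAPBP (chr6:33314029-33314328, minus strand): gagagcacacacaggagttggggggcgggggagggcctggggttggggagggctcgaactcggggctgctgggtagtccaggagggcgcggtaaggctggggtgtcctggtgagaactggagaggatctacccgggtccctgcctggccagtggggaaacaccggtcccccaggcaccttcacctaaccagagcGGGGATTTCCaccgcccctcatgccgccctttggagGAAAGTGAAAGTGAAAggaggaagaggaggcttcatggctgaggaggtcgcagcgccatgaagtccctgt
B2M (chr15:44711267-44711566, plus strand): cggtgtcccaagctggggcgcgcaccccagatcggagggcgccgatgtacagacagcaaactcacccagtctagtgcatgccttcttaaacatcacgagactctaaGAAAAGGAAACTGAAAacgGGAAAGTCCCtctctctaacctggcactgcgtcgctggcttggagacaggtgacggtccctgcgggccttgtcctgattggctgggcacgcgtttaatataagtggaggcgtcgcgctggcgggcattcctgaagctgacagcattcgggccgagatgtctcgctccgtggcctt

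The interferon response element was found in 3.57% of the 35116 RefSeq promoters of the same length, the GAS element in 7.66% and the NF-kappaB consensus in 11.3%. Promoters were found for 8 of the 9 members, all but HLA-E. The interferon response element matched in overlapping pairs in TAP1 (the nearer 128 bases before the start site), TAPBP (14 bases) and B2M (138 bases), and once in TAP2 (58 bases). It matched once at the second listed start of PSMB8, 4 bases before it, beside a GAS element at 65 bases. The windows of HLA-B, HLA-C and PSMB9 held no interferon response element, and that of PSMB9 no capitals at all. The PSMB9 window covers only 250 of the 488 bases between its start and that of TAP1. The pair matched in TAP1 lies between these start sites, outside the PSMB9 window, so its absence there does not separate the genes. The NF-kappaB consensus matched in HLA-B, HLA-C, B2M, TAP1 and TAPBP. A match is a description of these letters and not a site shown to be in use.

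The first question was which steps of the pathway differed between each resistant line and HCT8. In HCT8/5-Fu, HLA-C, TAP1, TAP2, TAPBP and PSMB8 rose and PSMB9 fell, while HLA-B, HLA-E and B2M did not pass the test. In HCT8/DDP, HLA-B, HLA-C, HLA-E, TAP1, TAP2, TAPBP and PSMB8 rose and PSMB9 fell, while B2M did not pass. The counts of 5 higher and 1 lower in HCT8/5-Fu are read against 20.4% of all 13228 genes tested called higher and 18.3% called lower, 38.7% in all. The counts of 7 higher and 1 lower in HCT8/DDP are read against 27% of 13373 genes called higher and 25.5% called lower, 52.5% in all. Scaling by library totals instead of TMM factors moved the share of calls that were higher to 41.3% in HCT8/5-Fu, against 52.6% with TMM, and to 38.4% in HCT8/DDP, against 51.5% with TMM. The libraries of the members did not overlap with HCT8 for 5 genes upward and 1 downward in HCT8/5-Fu, where 21.1% of all genes lay wholly above HCT8 and 30.4% wholly below. In HCT8/DDP they did not overlap for 6 upward and 1 downward, where 23% of all genes lay above and 38.2% below. All 9 members passed the filter on low counts in each comparison. Their median log2 fold change was 0.34 in HCT8/5-Fu and 0.63 in HCT8/DDP, against a median of 0.00 and -0.01 over all genes tested. A gene was called when its adjusted p was under 0.05 in edgeR's quasi-likelihood test, with Benjamini-Hochberg adjustment over all genes tested, and both comparisons share the HCT8 libraries.

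**Figure D1:**
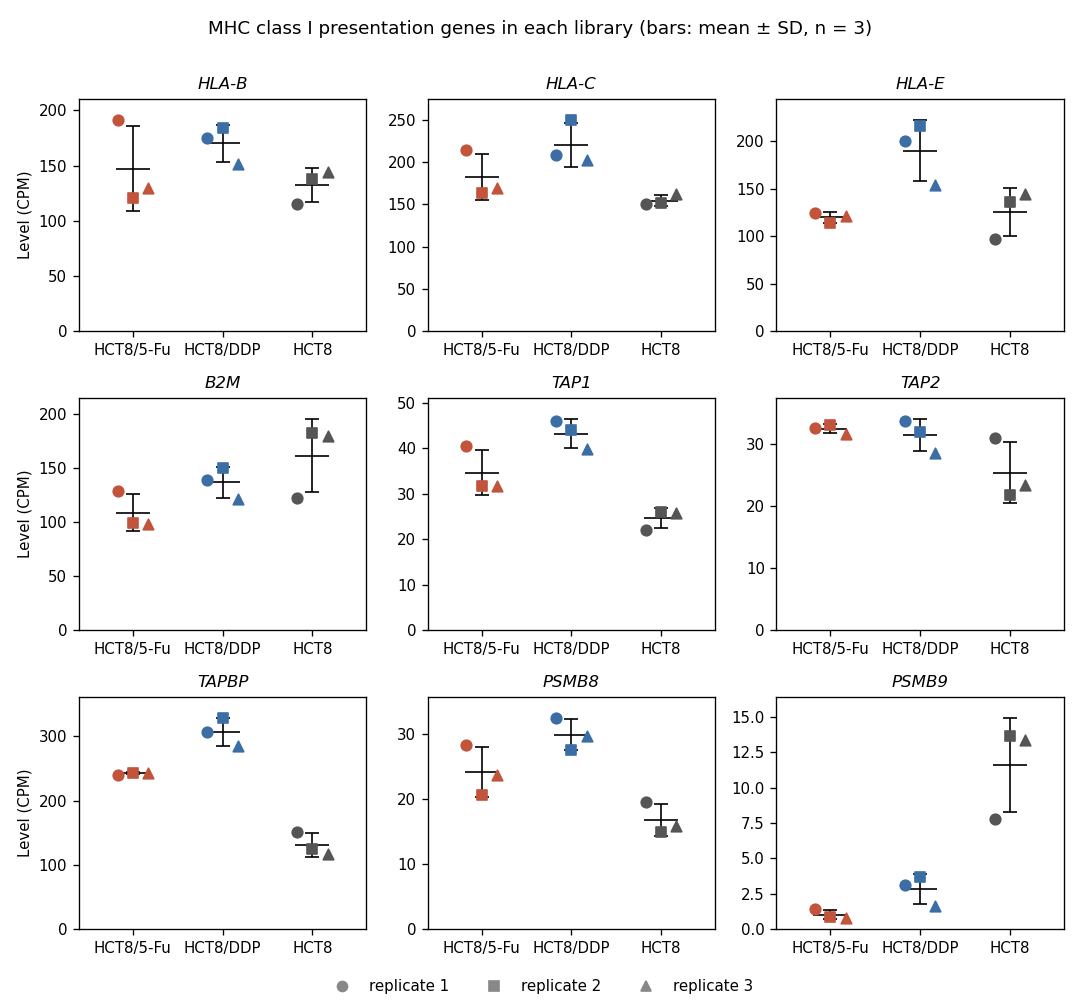
Level of each of the 9 genes in CPM (vertical axes, from 0) in the 3 libraries of HCT8/5-Fu, HCT8/DDP and HCT8. Marker shape gives the replicate, and black bars the mean ± SD (n = 3); PSMB9 is at 0.82 to 3.72 CPM in the resistant lines and 7.80 to 13.7 CPM in HCT8, whereas TAPBP is at 241 to 329 CPM and 117 to 151 CPM.

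HLA-B and HLA-C encode classical heavy chains, which present peptides to T cells. HLA-C had 214, 164 and 170 CPM in HCT8/5-Fu, 209, 249.9 and 202 CPM in HCT8/DDP, and 150.5, 151 and 162 CPM in HCT8. All 6 libraries of the resistant lines were above the highest HCT8 library. In HCT8/5-Fu the log2 fold change of HLA-C was 0.34 ± 0.12 (SE, adjusted p = 0.0472 in edgeR), and in HCT8/DDP it was 0.63 ± 0.10 (adjusted p = 2.32e-04). The call in HCT8/5-Fu was close to the threshold and was lost in 8 of 12 alternatives, among them without HCT8/5-Fu replicate 2 or 3 or any single HCT8 library (adjusted p of 0.0825 to 0.142).

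HLA-B had 191, 120.5 and 130.0 CPM in HCT8/5-Fu, 175, 184 and 151.7 CPM in HCT8/DDP, and 115, 138 and 144 CPM in HCT8. The HCT8/DDP libraries were all above those of HCT8, whereas in HCT8/5-Fu only replicate 1 was. Its log2 fold change was 0.48 ± 0.12 in HCT8/DDP (SE, adjusted p = 0.00403 in edgeR) and 0.24 ± 0.17 in HCT8/5-Fu (adjusted p = 0.284), where it was 0.08 without replicate 1.

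HLA-E, a non-classical heavy chain that shows leader peptides of other class I chains to natural killer cells, was the heavy chain with the clearest difference between the resistant lines. It had 125, 114 and 121 CPM in HCT8/5-Fu, 201, 216 and 154 CPM in HCT8/DDP, and 97.0, 137 and 145 CPM in HCT8. The HCT8/DDP libraries were above all others, and those of HCT8/5-Fu lay within the range of HCT8. The log2 fold change of HLA-E was 0.71 ± 0.16 in HCT8/DDP (SE, adjusted p = 0.00256 in edgeR) and 0.03 ± 0.17 in HCT8/5-Fu (adjusted p = 0.919). HCT8/DDP libraries exceeded HCT8/5-Fu libraries by 0.67 ± 0.13 on the log2 scale (adjusted p = 0.0438), a call lost in 7 of 11 alternatives, although the value stayed between 0.57 and 0.78 with each library left out in turn.

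B2M, the light chain shared by all class I molecules, was called higher in neither line. It had 129, 99.4 and 98.4 CPM in HCT8/5-Fu, 139, 150.5 and 121 CPM in HCT8/DDP, and 122, 183 and 179 CPM in HCT8. HCT8 replicate 1 was low beside its replicates and fell within the range of both resistant lines, while the other HCT8 libraries were above all 6. The log2 fold change of B2M was -0.48 ± 0.18 in HCT8/5-Fu (SE, adjusted p = 0.0630 in edgeR) and -0.13 ± 0.15 in HCT8/DDP (adjusted p = 0.497). In HCT8/5-Fu, B2M was called lower in 6 of 12 alternatives. These were scaling by library totals (-0.57, adjusted p = 0.0375), DESeq2 (-0.49, adjusted p = 0.0305), all 9 libraries in 1 fit (-0.48, adjusted p = 0.0295), and the fits without HCT8/5-Fu replicate 1 (-0.55, adjusted p = 0.0308), without HCT8 replicate 1 (-0.67, adjusted p = 0.00548) and without both. In HCT8/DDP it was called lower in 1 of 11 alternatives, without HCT8 replicate 1 (-0.31, adjusted p = 0.00491).

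Set against B2M per length, the summed heavy chains were higher in both resistant lines. Here FPKM was used, the deposited count divided by gene length and library total, since levels of different genes compare only per length. The deposited length of B2M is 6079 bases of its span of 7391. Whether such lengths match the transcripts of these cells was not tested. The ratios are therefore compared between lines and are not read as relative amounts of different genes. The FPKM of HLA-B, HLA-C and HLA-E together was 8.99, 8.79 and 9.38 times that of B2M in HCT8/5-Fu, 9.15, 9.46 and 9.18 times in HCT8/DDP, and 6.50, 5.05 and 5.47 times in HCT8. The groups did not overlap, and the ratio averaged 9.05 ± 0.30 in HCT8/5-Fu, 9.26 ± 0.17 in HCT8/DDP and 5.67 ± 0.75 in HCT8 (SD, n = 3 each). An exact two-sided permutation test gave p = 0.1 for either line against HCT8, the smallest that 3 against 3 libraries allow, and 0.162 after adjustment over the 21 ratio tests made.

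TAP1 and TAP2 encode the chains of the peptide transporter. TAP1 had 40.4, 31.8 and 31.8 CPM in HCT8/5-Fu, 46.0, 44.0 and 39.7 CPM in HCT8/DDP, and 22.02, 26.1 and 25.8 CPM in HCT8. Every library of the resistant lines was above every HCT8 library. The log2 fold change of TAP1 was 0.59 ± 0.14 in HCT8/5-Fu (SE, adjusted p = 0.0101 in edgeR) and 0.93 ± 0.12 in HCT8/DDP (adjusted p = 2.68e-05), and it was called in all 12 and all 11 alternatives.

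TAP2 had 32.7, 33.2 and 31.7 CPM in HCT8/5-Fu, 33.8, 32.0 and 28.6 CPM in HCT8/DDP, and 31.1, 21.8 and 23.5 CPM in HCT8. HCT8 replicate 1 was close to the resistant lines, and overlapped HCT8/DDP. The log2 fold change was 0.47 ± 0.15 in HCT8/5-Fu (SE, adjusted p = 0.0341 in edgeR) and 0.43 ± 0.13 in HCT8/DDP (adjusted p = 0.0128). The call of TAP2 was lost in HCT8/5-Fu in 6 of 12 alternatives, among them without HCT8/5-Fu replicate 2 or 3 (adjusted p of 0.110 and 0.0961) and without HCT8 replicate 2 or 3 (0.139 and 0.134). In HCT8/DDP it was lost without HCT8/DDP replicate 1 (0.0535), HCT8 replicate 2 (0.0597) or HCT8 replicate 3 (0.0547), and under scaling by library totals (0.0843).

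TAPBP, the peptide loading chaperone, had the largest rise of the members in both lines. It had 241, 243 and 243 CPM in HCT8/5-Fu, 307, 329 and 286 CPM in HCT8/DDP, and 151, 124 and 117 CPM in HCT8. The lines were ordered without overlap, with HCT8/DDP highest and HCT8 lowest. TAPBP rose by a log2 fold change of 0.999 ± 0.13 in HCT8/5-Fu (SE, adjusted p = 4.33e-04 in edgeR) and 1.35 ± 0.10 in HCT8/DDP (adjusted p = 3.09e-07), and both calls held in all alternatives run.

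**Figure D2:**
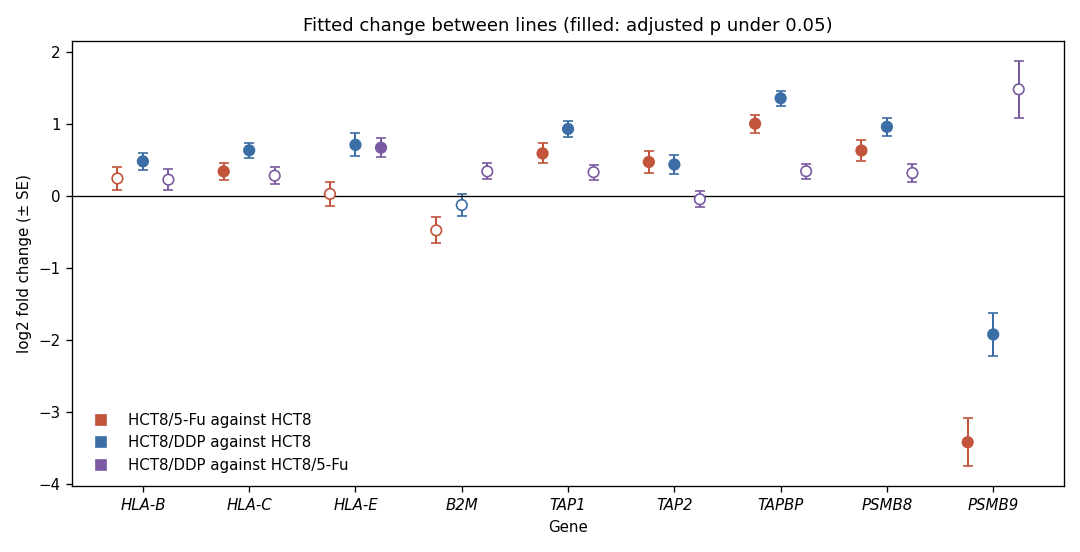
Log2 fold change ± SE (vertical axis) of the 9 genes in HCT8/5-Fu against HCT8, HCT8/DDP against HCT8 and HCT8/DDP against HCT8/5-Fu, 3 libraries per line, filled where the adjusted p was under 0.05. TAPBP reaches 0.999 and 1.35, PSMB9 -3.42 and -1.93, and HLA-E is the only filled point of the comparison between the resistant lines.

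The immunoproteasome subunits went in opposite directions. PSMB8, which takes the place of the constitutive subunit PSMB5, had 28.3, 20.6 and 23.6 CPM in HCT8/5-Fu, 32.4, 27.5 and 29.7 CPM in HCT8/DDP, and 19.5, 14.9 and 15.9 CPM in HCT8. All libraries of the resistant lines were above those of HCT8. PSMB8 rose by 0.63 ± 0.15 on the log2 scale in HCT8/5-Fu (SE, adjusted p = 0.0106 in edgeR) and by 0.96 ± 0.13 in HCT8/DDP (adjusted p = 3.90e-05). The call in HCT8/5-Fu was lost without HCT8 replicate 2 (adjusted p = 0.0554) or replicate 3 (0.0543).

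PSMB9, which takes the place of PSMB6, had 1.41, 0.88 and 0.82 CPM in HCT8/5-Fu, 3.15, 3.72 and 1.64 CPM in HCT8/DDP, and 7.80, 13.7 and 13.4 CPM in HCT8. These levels rest on 28, 25 and 23 reads in HCT8/5-Fu, 85, 104 and 44 reads in HCT8/DDP, and 154, 317 and 314 reads in HCT8. No library of a resistant line reached the lowest HCT8 library. The level of PSMB9 was 10.7-fold lower in HCT8/5-Fu (log2 fold change -3.42 ± 0.33 SE, adjusted p = 1.02e-04 in edgeR) and 3.80-fold lower in HCT8/DDP (-1.93 ± 0.30, adjusted p = 1.76e-04). Both calls held in all alternatives run, with values of -3.66 to -3.27 and -2.16 to -1.66 when each library was left out in turn, and the value in HCT8/5-Fu was -3.85 without replicate 1 of both lines.

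Ratios within a library do not depend on the scaling between libraries, and set the subunits against each other and against those they replace. Their size depends on the deposited gene lengths, so they too are compared between lines only. The FPKM of PSMB9 was 5.20, 4.43 and 3.61% of that of PSMB8 in HCT8/5-Fu, 10.1, 14.1 and 5.78% in HCT8/DDP, and 41.6, 95.5 and 88.0% in HCT8. Relative to PSMB6, the subunit it replaces, PSMB9 stood at 0.90 ± 0.49% in HCT8/5-Fu, 3.0 ± 1.5% in HCT8/DDP and 9.22 ± 3.18% in HCT8 (SD, n = 3 each). PSMB8 relative to PSMB5 stood at 11.5 ± 3.24% in HCT8/5-Fu, 16.8 ± 2.27% in HCT8/DDP and 12.7 ± 2.08% in HCT8, where the libraries of HCT8/5-Fu and HCT8 overlapped (exact two-sided permutation p = 0.7). In HCT8/5-Fu the mean of this ratio was thus below that of HCT8. PSMB5 itself rose by 0.82 ± 0.15 and 0.55 ± 0.10 on the log2 scale in HCT8/5-Fu and HCT8/DDP (adjusted p = 0.00290 and 6.86e-04 in edgeR). PSMB10, the remaining inducible subunit, had a mean of only 0.90 CPM in HCT8/5-Fu, 0.53 CPM in HCT8/DDP and 0.40 CPM in HCT8 and did not pass the test.

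By their RefSeq starts, PSMB9 and TAP1 leave from the same stretch of DNA, and their ratio was compared for that reason. The FPKM of PSMB9 was 4.23 ± 0.70% of that of TAP1 in HCT8/5-Fu, 9.33 ± 3.15% in HCT8/DDP and 67 ± 14% in HCT8 (SD, n = 3 each), and no library of a resistant line overlapped with HCT8. The ratio of TAP1 to TAP2 was 1.41 ± 0.20 in HCT8/5-Fu, 1.83 ± 0.02 in HCT8/DDP and 1.33 ± 0.34 in HCT8. In the exact two-sided permutation test each ratio without overlap gave p = 0.1, the smallest possible, and 0.162 after adjustment.

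**Figure D3:**
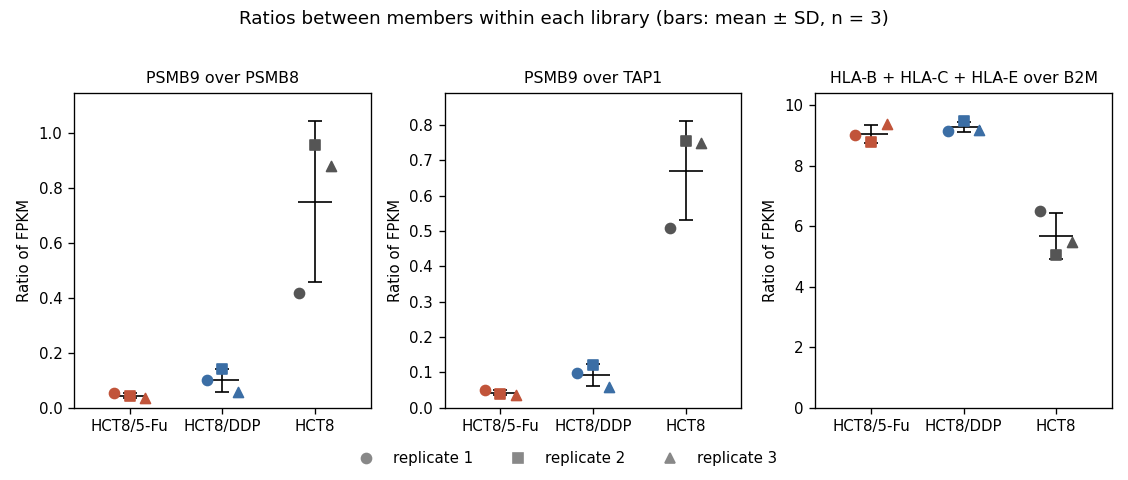
Ratios of FPKM within each library (vertical axes, from 0) for PSMB9 over PSMB8, PSMB9 over TAP1, and the sum of HLA-B, HLA-C and HLA-E over B2M, in HCT8/5-Fu, HCT8/DDP and HCT8. Points are libraries with shape by replicate and black bars the mean ± SD (n = 3); the heavy chain ratio is at 8.79 to 9.46 in the resistant lines and 5.05 to 6.50 in HCT8.

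HCT8/DDP was next compared with HCT8/5-Fu, where 2.27% of 13012 genes were called (1.51% higher, 0.753% lower). Only HLA-E was called among the members, and the median log2 fold change of the members was 0.33. TAPBP (0.34 ± 0.10, adjusted p = 0.116 in edgeR) and PSMB9 (1.48 ± 0.40, adjusted p = 0.0884) were higher in every HCT8/DDP library than in any HCT8/5-Fu library without passing the test. Of all genes tested, 14.2% lay wholly above HCT8/5-Fu in this way and 13.7% wholly below. HCT8/5-Fu replicate 1 weighs heavily here, since without it 8 of the 9 members were called, all but TAP2, and 3929 genes in all, against 295 with it. The shares of all genes called higher and lower in that fit are not given here. Its count of members is therefore not read as a result about the members. Of these 8 members, PSMB9 was higher in HCT8/DDP by 1.68 on the log2 scale (adjusted p = 0.00885) and the other 7 by 0.27 to 0.63. Without any other single library no gene was called in edgeR, while 1527 to 2551 genes and 3 to 5 members had an unadjusted p under 0.05. DESeq2 on all 6 libraries called 3 members, HLA-E, TAPBP and PSMB9.

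Ordered by level per length, the members spanned a wide range in each line. This order depends on the deposited gene lengths, and their match to the transcripts of these cells was not tested. In HCT8, HLA-C had the highest mean at 61.6 ± 2.52 FPKM, above HLA-B at 43.4 ± 5.07 FPKM and HLA-E at 43.1 ± 8.71 FPKM, which did not differ beyond their spread (SD, n = 3 each). B2M (26.6 ± 5.60 FPKM) and TAPBP (25.9 ± 3.58 FPKM) followed, likewise within their spread, and then TAP1, PSMB8, TAP2 and PSMB9 at 5.12, 4.82, 3.99 and 3.48 FPKM. In HCT8/DDP, TAPBP stood at 60.8 ± 4.24 FPKM, within the spread of HLA-E (65.2 ± 11.1 FPKM) and HLA-B (55.8 ± 5.48 FPKM), and PSMB9 at 0.85 ± 0.32 FPKM. In HCT8/5-Fu, TAPBP stood at 47.9 ± 0.30 FPKM and PSMB9 at 0.31 ± 0.10 FPKM.

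Across the 9 libraries the members fell into sets that moved alike, given here as a description because the libraries of a line share their source. The Pearson r of log2(CPM + 1) was 0.92 between TAPBP and PSMB8, 0.92 between HLA-C and TAP1, and 0.88 between HLA-B and HLA-C. B2M followed PSMB9 (r = 0.86) and not HLA-C (r = 0.01), and PSMB9 ran against TAPBP (r = -0.79). Among 9865 genes with a mean of at least 10 CPM, the pattern most like that of PSMB9 was that of COQ5 (r = 0.995), then NSMCE2 (0.991) and CEP70 (0.990). Among the 9864 such genes other than the member itself, TAPBP was most like NCSTN, ECE1 and SPRY4 (each r = 0.995), and B2M most like VIL1, the gene of the microvillus protein villin (r = 0.978).

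The rest of the loading machinery was then examined. Counts of the lists are read against all genes tested. Of these, 20.4% were called higher and 18.3% lower in HCT8/5-Fu, and 27% higher and 25.5% lower in HCT8/DDP. Of 12 other genes of peptide loading and folding in the endoplasmic reticulum, 3 were higher and 0 lower in HCT8/5-Fu, and 8 higher and 0 lower in HCT8/DDP, with medians of 0.34 and 0.38. In this list 5 genes had an unadjusted p under 0.05 in HCT8/5-Fu and 9 in HCT8/DDP, and DESeq2 called 5 and 8. ERAP2, an aminopeptidase that trims peptides for class I, rose by 0.56 ± 0.12 on the log2 scale in HCT8/5-Fu (SE, adjusted p = 0.00636 in edgeR) and by 0.88 ± 0.10 in HCT8/DDP (adjusted p = 1.43e-05). GANAB, a glucosidase subunit that prepares glycoproteins for folding, rose by 0.45 and 0.67, a call that was lost in HCT8/5-Fu without any single library other than HCT8/5-Fu replicate 1 (adjusted p of 0.0847 to 0.1704). Of 10 proteasome catalytic and activator genes outside the members, 2 were higher in HCT8/5-Fu and 3 in HCT8/DDP with none lower, and of 11 constitutive 20S subunits only PSMA6 was called, lower in HCT8/DDP (-0.64 ± 0.20, adjusted p = 0.0154), a call lost without HCT8/DDP replicate 1 (adjusted p = 0.0505). Without HCT8/5-Fu replicate 1 PSMA6 was also called lower in HCT8/5-Fu (-0.54, adjusted p = 0.0445). For the 20S subunits 2 had an unadjusted p under 0.05 in HCT8/5-Fu and 3 in HCT8/DDP, and DESeq2 called 0 and 1. Of 9 cytosolic peptidases, 3 were higher in HCT8/5-Fu and 2 in HCT8/DDP, led by BLMH (0.99 and 0.78).

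**Figure D4:**
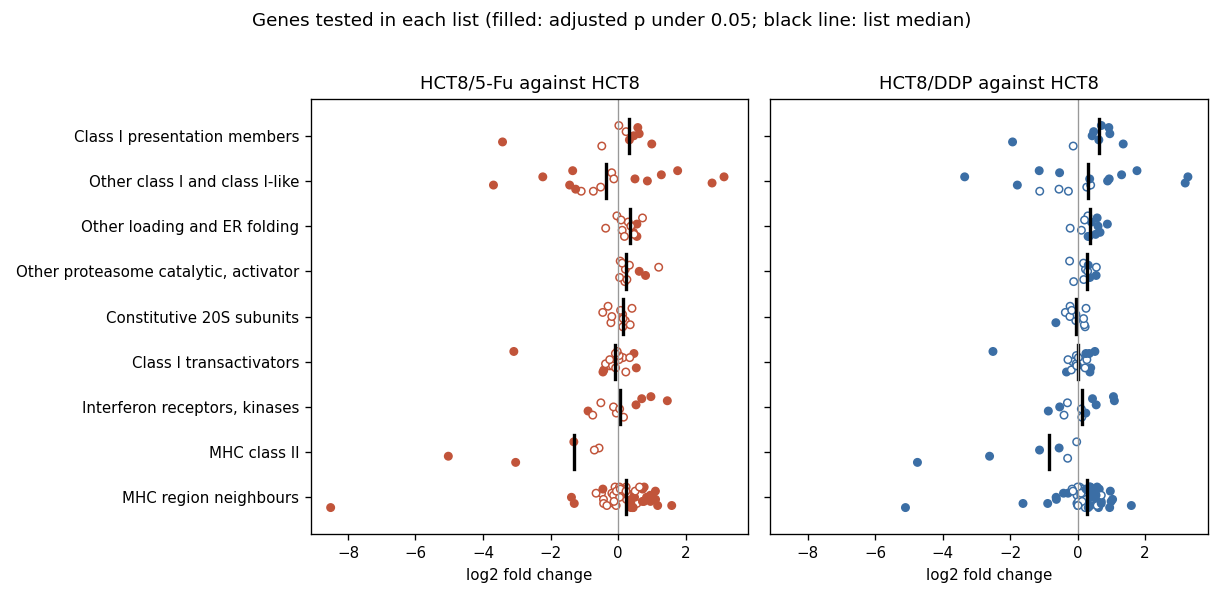
Log2 fold change (horizontal axes) of each tested gene in the lists named at the left, in HCT8/5-Fu and in HCT8/DDP against HCT8. Points are genes, filled where the adjusted p was under 0.05, and black lines list medians, 0.34 and 0.63 for the members and -1.31 and -0.84 for the MHC class II genes; the far left point of the MHC region neighbours is at 0 in all 3 HCT8/5-Fu libraries, so its fitted value depends on the prior count.

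Other class I heavy chains and class I-like genes changed in both directions. Of 16 tested, 6 were higher and 5 lower in HCT8/5-Fu (median -0.35), and 7 higher and 4 lower in HCT8/DDP (median 0.32). The genes named by the rule all encode class I-like proteins that do not present peptides to T cells. RAET1L, a ligand of the activating natural killer receptor NKG2D, had 19.2, 12.8 and 13.8 CPM in HCT8/5-Fu, 17.8, 15.9 and 15.4 CPM in HCT8/DDP, and 1.72, 1.64 and 2.13 CPM in HCT8. RAET1L was 8.82-fold higher in HCT8/5-Fu (adjusted p = 1.86e-05 in edgeR) and 9.64-fold higher in HCT8/DDP (adjusted p = 2.34e-08). ULBP2, another NKG2D ligand, was 3.40-fold and 3.39-fold higher, and RAET1E 6.90-fold and 9.12-fold. The ligands of NKG2D did not all move this way. Of the 8 in the list, 4 were higher and 1 lower in HCT8/5-Fu, and 5 higher and 1 lower in HCT8/DDP. Some calls, given after their values were seen, depend on the setting. MICB in HCT8/5-Fu was lost without replicate 2 or 3 of HCT8/5-Fu or of HCT8 (adjusted p of 0.0501 to 0.0685 in edgeR). Under library totals, ULBP3 was lost in HCT8/DDP (adjusted p = 0.0676) and RAET1G was called lower there (0.0360). ULBP1, named after its values were seen, was lower in HCT8/5-Fu (log2 fold change -1.43 ± 0.27, adjusted p = 0.00315 in edgeR) and was not called in HCT8/DDP (0.39 ± 0.32, adjusted p = 0.335). Without HCT8/DDP replicate 3, ULBP1 was called higher in HCT8/DDP (0.71, adjusted p = 0.0461 in edgeR). MICA, likewise named afterwards, was lower in HCT8/DDP (-0.53 ± 0.12, adjusted p = 0.00264) and was not called in HCT8/5-Fu (-0.19 ± 0.14, adjusted p = 0.319), where it was called without replicate 1 of both lines (-0.25, adjusted p = 0.0491).

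Of 18 genes that control class I transcription, 2 were higher and 3 lower in HCT8/5-Fu (median -0.07), where 38.7% of all genes were called, and 5 higher and 2 lower in HCT8/DDP (median 0.01), where 52.5% were. IRF8, an interferon regulatory factor best known from immune cells, had 7.003, 6.27 and 6.56 CPM in HCT8/5-Fu, 9.33, 12.4 and 7.69 CPM in HCT8/DDP, and 47.3, 71.1 and 61.9 CPM in HCT8. Its log2 fold change was -3.09 ± 0.19 and -2.51 ± 0.19 (adjusted p = 9.47e-06 and 2.95e-07 in edgeR), and its libraries did not overlap between either resistant line and HCT8. NLRC5, the main transactivator of class I genes, had 43.1, 17.1 and 18.8 CPM in HCT8/5-Fu, 31.8, 34.02 and 29.8 CPM in HCT8/DDP, and 33.9, 35.8 and 37.03 CPM in HCT8, so that replicate 1 of HCT8/5-Fu lay above all other libraries and its replicates below them. NLRC5 had a log2 fold change of -0.37 ± 0.28 in HCT8/5-Fu (adjusted p = 0.326) and -0.04 ± 0.11 in HCT8/DDP (adjusted p = 0.761). Without HCT8/5-Fu replicate 1 its log2 fold change in HCT8/5-Fu was -0.82 ± 0.12 (adjusted p = 4.78e-04), so that this library decides whether NLRC5 is called lower. NLRC5 and IRF1, an interferon-induced activator (0.15 ± 0.14 and 0.27 ± 0.12, adjusted p = 0.434 and 0.0833), were chosen after their values were seen.

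The chains of the interferon-gamma receptor moved apart. IFNGR1, the ligand-binding chain, had 55.4, 36.6 and 33.4 CPM in HCT8/5-Fu, 37.5, 44.9 and 42.1 CPM in HCT8/DDP, and 87.9, 81.2 and 77.6 CPM in HCT8, and its log2 fold change was -0.89 ± 0.15 and -0.87 ± 0.10 (adjusted p = 0.00216 and 1.02e-05 in edgeR). IFNGR2, the signaling chain, had 60.3, 61.5 and 65.0 CPM in HCT8/5-Fu, 68.3, 68.3 and 60.7 CPM in HCT8/DDP, and 31.2, 37.0 and 34.04 CPM in HCT8, and rose by 0.97 ± 0.13 and 1.06 ± 0.11 (adjusted p = 6.25e-04 and 3.56e-06). In neither gene did a resistant line overlap with HCT8. Over the list of 11 interferon receptors and their kinases and inhibitors, 4 were higher and 1 lower in HCT8/5-Fu, and 5 higher and 2 lower in HCT8/DDP. Of 10 genes reported to repress class I expression, 2 were higher and 2 lower in HCT8/5-Fu, and 4 higher and 2 lower in HCT8/DDP.

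MHC class II genes, which lie in the same region but present peptides taken up from outside, were largely silent. Of 15 listed genes only 5 passed the filter in HCT8/5-Fu and 6 in HCT8/DDP, where 3 and 4 were lower and 0 higher. HLA-DMB, a chaperone of class II loading whose gene lies close to PSMB9, had 0.05, 0.11 and 0.18 CPM in HCT8/5-Fu, 0.59, 1.07 and 0.26 CPM in HCT8/DDP, and 4.51, 4.48 and 3.88 CPM in HCT8. It was lower in HCT8/5-Fu (log2 fold change -5.03 ± 0.44, adjusted p = 6.29e-05 in edgeR), a value that rests on very few reads, and in HCT8/DDP (-2.61 ± 0.41, adjusted p = 1.69e-04). Of 54 tested neighbours in the region without a role in presentation, 17 were higher and 4 lower in HCT8/5-Fu (median 0.24), and 27 higher and 7 lower in HCT8/DDP (median 0.29), led by NFKBIL1 (1.59 in both). The medians of the members were 0.34 and 0.63, so an upward shift was not particular to the members. Of 6 tested checkpoint and natural killer ligands, 2 were higher and 1 lower in HCT8/5-Fu, and 5 higher and 0 lower in HCT8/DDP. Between HCT8/DDP and HCT8/5-Fu, where 2.27% of all genes were called, edgeR called 0 genes in each of these lists outside the members. At an unadjusted p under 0.05 the counts per list were 1 to 10, and DESeq2 called 0 to 3.

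The miRNAs of the miR-148 and miR-152 family, known to target the HLA-C transcript, were measured in the same lines in RPM, the reads of a miRNA scaled in the same way. Their mature sequences from RefSeq are shown with the seed, bases 2 to 8, in capitals, because all 3 share it.
hsa-miR-148a-3p: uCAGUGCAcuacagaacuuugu
hsa-miR-148b-3p: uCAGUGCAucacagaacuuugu
hsa-miR-152-3p: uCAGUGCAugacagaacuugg

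hsa-miR-148a-3p, by far the most abundant of them, had 98318, 114989 and 120573 RPM in the HCT8/5-Fu libraries, 171886, 151914 and 154594 RPM in those of HCT8/DDP, and 110156, 225148 and 217302 RPM in those of HCT8. HCT8 replicate 1, which held only 529037 reads, was at the level of HCT8/5-Fu, while the other HCT8 libraries were above all 6 of the resistant lines. The log2 fold change of hsa-miR-148a-3p was -0.66 ± 0.29 in HCT8/5-Fu (SE, adjusted p = 0.129 in limma) and -0.14 ± 0.28 in HCT8/DDP (adjusted p = 0.799). hsa-miR-148b-3p averaged 2593 ± 201 RPM over the HCT8/5-Fu libraries, 3232 ± 44.5 RPM over those of HCT8/DDP and 3582 ± 779 RPM over those of HCT8 (SD, n = 3 each). hsa-miR-152-3p averaged 939 ± 37.0 RPM over the HCT8/5-Fu libraries, 1005 ± 88.6 RPM over those of HCT8/DDP and 794 ± 110.1 RPM over those of HCT8. Neither was called in limma, where 25.9% of miRNAs were called in HCT8/5-Fu (11.1% lower, 14.8% higher) and 17.9% in HCT8/DDP (7.85% lower, 10% higher). At an unadjusted p under 0.05, 1 of the 3 passed in each resistant line, and edgeR on reads recovered from the RPM steps called 1 in HCT8/5-Fu and 0 in HCT8/DDP. Without HCT8 replicate 1, hsa-miR-148a-3p was lower in HCT8/5-Fu by a log2 fold change of -0.996 (adjusted p = 8.75e-04) and in HCT8/DDP by -0.47 (adjusted p = 0.0120), and hsa-miR-148b-3p in HCT8/5-Fu by -0.63 (adjusted p = 0.00614), so that library decides these calls. Between HCT8/DDP and HCT8/5-Fu, where 1.23% of miRNAs were called (0.353% higher, 0.882% lower), hsa-miR-148a-3p differed by 0.52 ± 0.12 (adjusted p = 0.0634) without overlap, with 2 of the 3 under an unadjusted p of 0.05 in limma and 3 in edgeR, and none called by either.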

How the data were processed

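RNA of HCT8/5-Fu, HCT8/DDP and HCT8 cells was sequenced in 3 libraries per line. The authors aligned reads with HISAT2 and deposited a read count per gene for 19976 genes, with FPKM values that equal count over gene length and library total. The authors also deposited miRNA values in RPM for 1576 miRNAs. The build in their notes is mm9, a mouse genome, while gene positions fit human GRCh38. The only library preparation that the study describes removed ribosomal RNA and then used RNase R against linear RNA. Whether RNase R treatment preceded the mRNA libraries is not given in the sources used here, and its effect on the levels was not tested. The lncRNA and circRNA tables were not used here.

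Counts were tested with edgeR 4.0.16 (R 4.3.3; quasi-likelihood, TMM factors, filterByExpr) on the 6 libraries of each comparison, with an adjusted p under 0.05 as threshold. The SE of a log2 fold change is its size over the square root of F. CPM use library totals, whereas fold changes use TMM factors, and for small changes the choice matters. With library totals the log2 fold change of HLA-C in HCT8/5-Fu was 0.24 in place of 0.34, and its call was lost. TAP2 then lost its call in both resistant lines, and B2M was called lower in HCT8/5-Fu. For RPM, limma 3.58.1 with a trend was run on log2(RPM + 1), for miRNAs with at least 1 RPM in 3 libraries, and such a fold change understates low miRNAs. From 96.7 to 100% of RPM values came out as whole reads (within 0.02 of a read, or within the table's rounding), giving 529037 to 14087248 reads per library. Members and lists were chosen with earlier results of these data known. All members were named, with up to 4 genes per list with the smallest p and the 3 nearest patterns per member, of which some are given. Same-numbered libraries did not deviate together in the mRNA table (r of -0.269 to 0.102). In the miRNAs of HCT8/DDP and HCT8 they had r = 0.264, 0.277 and 0.129, a pattern seen only in the data. HCT8/DDP replicate 3 had an r of 0.131 with HCT8 replicate 2, so the numbers do not pair it. Replicate 1 of HCT8/DDP and of HCT8 were the shallowest miRNA libraries (732699 and 529037 reads), and the part of depth was not tested. Alternatives were library totals, DESeq2 1.42.0, no filter, all 9 libraries in 1 fit, other pseudocounts, a replicate block, and each library left out. Fits without both shallow libraries, edgeR on recovered miRNA reads, and the alternatives of genes outside the members were added after seeing the data. The fits were tested on simulated data.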

Additional observations from a re-analysis of the deposited data

Results flagged for a closer look

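HLA-E was the one member whose level differed between the resistant lines by the test of that difference. Its log2 fold change in HCT8/DDP against HCT8/5-Fu was 0.67 (adjusted p = 0.0438 in edgeR), with 201, 216 and 154 CPM in HCT8/DDP, against 125, 114 and 121 CPM in HCT8/5-Fu. All 3 HCT8/DDP libraries were above all 3 HCT8/5-Fu libraries, as was the case for 14.2% of all genes tested. The call was lost with any single library left out other than HCT8/5-Fu replicate 1 (adjusted p of 0.0673 to 0.244) and was kept without that library (0.63, adjusted p = 0.00133).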

How the results depend on the processing

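Across the alternatives, 262 of the members' values kept their side of the threshold, 27 lost it, 17 gained it and none that was called changed sign. TAP1, TAPBP and PSMB9 were called in both resistant lines under every alternative. Scaling by library totals shifted the median log2 fold change of all genes to -0.11 in HCT8/5-Fu and -0.13 in HCT8/DDP. In HCT8/5-Fu the genes called ranged from 3274 to 7533 and the members from 3 to 7 with each library left out, the lowest without HCT8 replicate 2 or 3 (3 members each), and 9777 genes were called with both shallow libraries left out. In HCT8/DDP the ranges were 5821 to 8024 genes and 7 to 9 members. Between HCT8/DDP and HCT8/5-Fu, where 295 genes and 1 member were called, the ranges were 0 to 3929 genes and 0 to 8 members. There, library totals gave 0 members (5 at an unadjusted p under 0.05), DESeq2 1283 genes and 3 members, and all 9 libraries in 1 fit 635 genes and 2 members.

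Replicate numbers are shared only as numbers in the mRNA table. The replicate block gave 4685 genes and 4 members in HCT8/5-Fu (HLA-C and TAP2 lost), 6609 genes and 8 members in HCT8/DDP, and 0 genes and 0 members between the resistant lines (2263 and 6 at an unadjusted p under 0.05). For the miR-148 and miR-152 family the replicate block changed no call.

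The miRNAs called in HCT8/5-Fu, HCT8/DDP and between the resistant lines ranged from 82 to 167, 66 to 122 and 0 to 8 with each library left out, and the family members called from 0 to 2, 0 to 1 and 0. Between the resistant lines 4 miRNAs were called with a pseudocount of 0.1, 0 with no filter (145 at an unadjusted p under 0.05), 3 with all 9 libraries in 1 fit, 1 with the replicate block and 23 in edgeR on recovered reads, which called 1 family member in HCT8/5-Fu. The cause of these moves was not tested. PSMB9 rests on 23 to 104 reads per resistant library, which limits its precision.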
